A study of Homo sapiens with 6 samples.

Results

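The cleavage and polyadenylation factors described here were 10 genes, CPSF1, CPSF2, CPSF3, CPSF4, CPSF6, CPSF7, CSTF1, CSTF2, CSTF3 and NUDT21, taken by gene name from the 58884 genes of the deposited expression table. They were chosen by name, with earlier results of these data known, and all 10 had enough reads to be tested. RNA-seq was carried out on immortalized human cardiomyocytes, in which CIRBP, a cold-inducible RNA-binding protein, had been knocked down. The cells received negative control siRNA (NC, 3 libraries) or siRNA against CIRBP (SiCIRBP, 3 libraries), with no other agent and no time after transfection named on the labels, and all libraries come from a single line grown in serum-containing medium. The labels give the cell line as T0519, whereas the text of the paper describes its transcriptome experiment in AC16 cells, so the line was taken as labelled. In the study's own list of changed genes, NC_2 and NC_3 were compared with SiCIRBP_1 and SiCIRBP_3, and the test below uses these 4 libraries. The paper excluded NC_1 and SiCIRBP_2 as the most discrepant in its correlation and principal component analyses of these same data. That selection can lower the spread within the groups, and p-values over the 4 libraries make no allowance for it. The values of NC_1 and SiCIRBP_2 are printed beside them throughout.

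The 3′ end of a messenger RNA is made by cutting the nascent transcript and adding a poly(A) tail. CPSF1 is the scaffold of the cleavage and polyadenylation specificity factor (CPSF), CPSF4 and its partner WDR33 bind the AAUAAA hexamer upstream of the cut, CPSF3 is the endonuclease and CPSF2 its catalytically inactive relative. CSTF1, CSTF2 and CSTF3 form the cleavage stimulation factor (CstF), in which CSTF2 binds U-rich or GU-rich sequence downstream of the cut and CSTF3 is the subunit that holds the others together. NUDT21 binds UGUA sequence upstream of the cut as a dimer, joined by CPSF6 or CPSF7 to form cleavage factor I. The levels of several of these proteins are known to bias which of several poly(A) sites in a gene is used, which is termed alternative polyadenylation, and CIRBP itself is known to take part in that choice.

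Total estimated counts ranged from 25726259 to 29919566 per library, and every member had at least 461 counts in every library. CIRBP, the targeted gene, had normalized counts (CPM, reads scaled to the library's size by TMM) of 86.4, 85.8 and 91.0 in NC_1, NC_2 and NC_3 and of 54.8, 24.3 and 46.3 in SiCIRBP_1, SiCIRBP_2 and SiCIRBP_3, so that every SiCIRBP library lay below every NC library. Its log2 fold change was -0.81 over the 4 tested libraries (SE 0.11, edgeR adjusted p = 0.00828), -0.85 without NC_2 (edgeR adjusted p = 0.0576), -0.77 without NC_3 (edgeR adjusted p = 0.106) and -1.07 over all 6 libraries (edgeR adjusted p = 0.103, DESeq2 adjusted p = 0.00323). Of 14 cardiomyocyte markers, 4 reached 1 TPM in any library, the summed level of all 14 being 72.8 to 89.6 TPM in NC and 41.1 to 61.3 TPM in SiCIRBP, and MYH6, MYH7, RYR2, PLN and MYL2 stayed under 0.1 TPM in all 6. Of 8 fibroblast markers, 6 reached 1 TPM, with a summed level of 937 to 1102 TPM in NC and of 1053, 558 and 1651 TPM in SiCIRBP_1, SiCIRBP_2 and SiCIRBP_3. Of 4 smooth muscle markers, 3 reached 1 TPM, with a summed level of 327 to 368 TPM in NC and of 147, 1254 and 247 TPM in SiCIRBP. Nearly all of that sum was TAGLN, at 323 to 365 TPM in NC and 145, 1240 and 244 TPM in SiCIRBP. SiCIRBP_2 stood apart in the 16 interferon-stimulated genes fixed as a list, which summed to 6563 TPM there, to 332 and 1260 TPM in the other SiCIRBP libraries and to 636 to 665 TPM in the NC libraries. The part of these differences in the results below was not tested.

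CSTF3 and CPSF6 were the members whose reads rose after knockdown. Sequences of some of their annotated forms are shown because the lengths described further below are compared with these forms. Each of the 2 genes has 8 annotated transcripts, and forms not shown can also affect those lengths. CSTF3 lies on the minus strand at chr11:33077188-33162371 (GRCh38, GENCODE 29). The gene is known to carry a conserved poly(A) site in intron 3, use of which gives a short transcript lacking most of the coding sequence. Its main full-length form has 21 exons and 2797 bases. Of the annotated short forms, one with 3 exons has 1132 bases and one with 2 exons has 715 bases. Both read past the end of exon 3 into an intron of 33248 bases, the 3-exon form by 701 bases, and the end of the 3-exon form lies 56382 bases upstream of the end of the full-length form. The sense strand across the end of exon 3 is shown as read through in the 3-exon form and as spliced to exon 4 in the full-length form, with the intron's leading GT in capitals.
CSTF3 3-exon form across the end of exon 3: tacattgaagcagagGTtactattttattt
CSTF3 full-length form from exon 3 to exon 4: tacattgaagcagagattaaagctaaaaat

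The last 30 bases of the annotated forms follow, with the hexamer AATAAA in capitals where it occurs. Those of the CSTF3 full-length form (chr11:33084584-33084613), 3-exon form (chr11:33140966-33140995) and 2-exon form (chr11:33141465-33141494) are on the minus strand. CPSF6 lies on the plus strand at chr12:69239537-69274358, and its proximal form (2229 bases, ending at chr12:69269910-69269939) and distal form (6616 bases, ending at chr12:69274329-69274358) stop 4419 bases apart. AATAAA occurred in the last 50 bases of 35.56% of 82892 annotated protein-coding transcripts and the related hexamer ATTAAA in 10.86%, searched on the sense strand. Transcripts whose 3′ end is annotated as incomplete were counted too, so these are not the shares among complete ends.
CSTF3 full-length end: tcctttaaaaAATAAAaggattcagaaaca
CSTF3 3-exon end: ttcatgattatggttaggaggaaaatgtta
CSTF3 2-exon end: cttttacaagctgatgattgttgcattttg
CPSF6 proximal end: tgtagtgttgtAATAAActgtttaatgggg
CPSF6 distal end: tattgaaAATAAAacaaacttttgataaga

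Neither short CSTF3 form held AATAAA or ATTAAA in its last 50 bases. Within the bases that the 3-exon form reads past exon 3, ATTAAA occurred 2 times, starting 146 and 216 bases after the exon's end. The drawing of the CSTF3 transcripts shows how little of the gene the short forms cover.

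**Figure D1:**
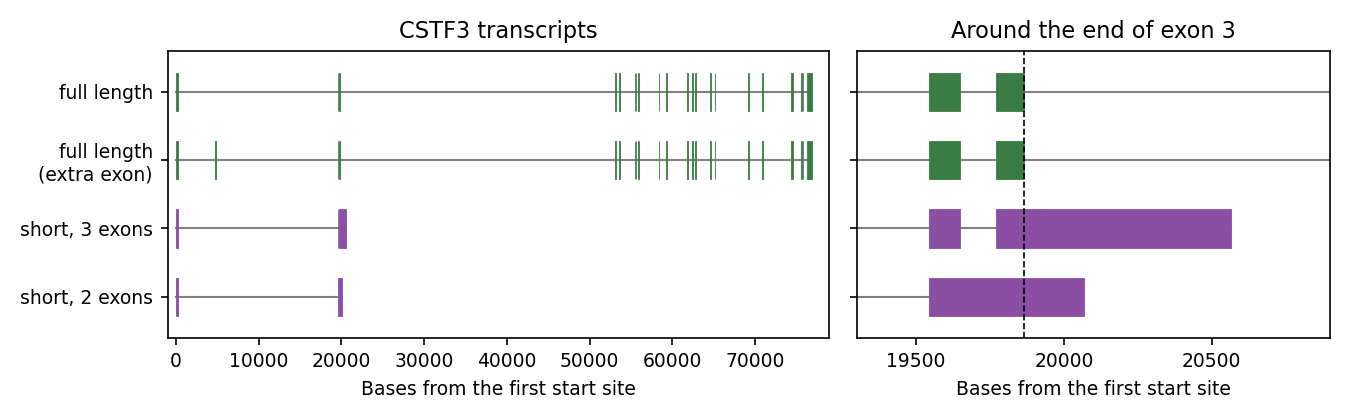
Exons (boxes) and introns (lines) of 4 annotated CSTF3 transcripts, plotted by distance in bases from the most upstream start site among them, full-length forms in green and short forms in purple; the right panel enlarges the end of exon 3, marked by a dashed line. Both short forms extend past that line, the 3-exon form by 701 bases, where the full-length forms splice onward.

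Of the 10 members, 2 rose over the 4 tested libraries, CSTF3 and CPSF6, and none fell (edgeR's quasi-likelihood test, Benjamini-Hochberg adjusted p under 0.05). Over all 15421 genes tested, 9.62% rose and 9.76% fell. With a change of at least 2-fold also required, CSTF3 alone was called, beside 1.82% of all genes higher and 1.8% lower. In bulk RNA, fewer cells of a kind and less RNA per cell cannot be told apart. At an unadjusted p under 0.05, 4 of the 10 members differed, CPSF1 lower and CSTF3, CPSF6 and CSTF1 higher. That share is near the 5651 of all 15421 genes at the same threshold. The median log2 fold change of the members was 0.09, and that of all genes 0.00.
Over all 6 libraries edgeR called none of the 10 and none of 15217 genes, of which 3603 had an unadjusted p under 0.05, CSTF3 and CPSF6 included. DESeq2 over the same 6 libraries called CSTF3 (adjusted p = 0.00713), beside 2.27% of 27993 genes higher and 2.55% lower. That set also holds genes with few reads, which edgeR left out, so these shares are not on the same footing as edgeR's. The CPM of the 3 SiCIRBP libraries lay wholly above that of the 3 NC libraries for 2 members and wholly below it for none, against 16.2% and 16.6% of all genes.

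**Figure D2:**
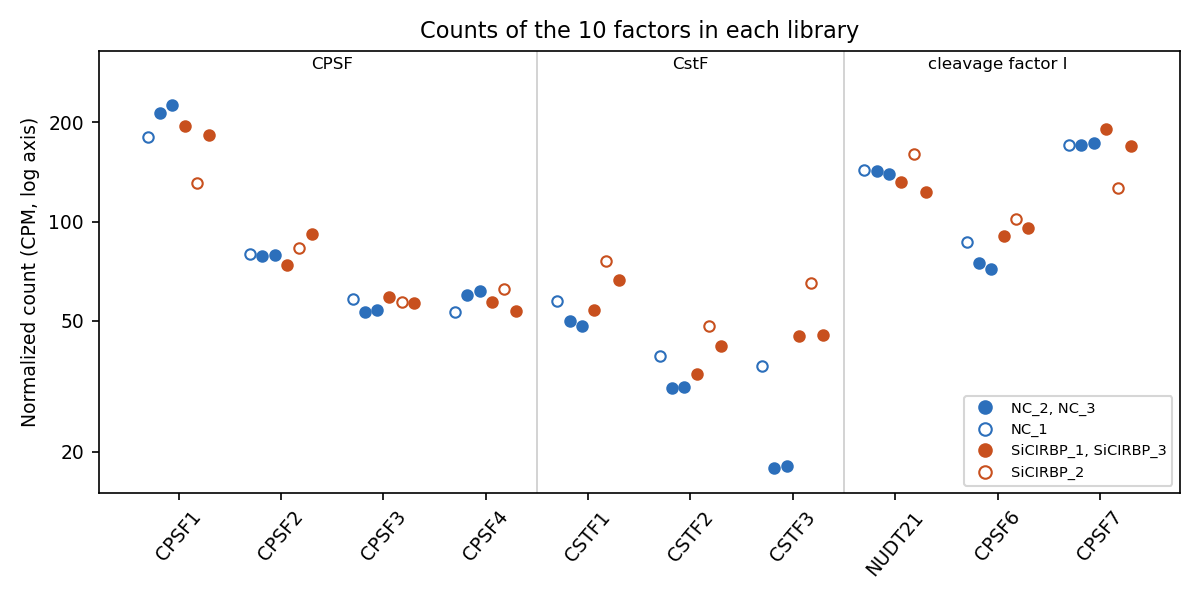
Normalized count (CPM, log axis) of each of the 10 factors in each library, NC in blue and SiCIRBP in orange, with the libraries outside the test (NC_1 and SiCIRBP_2) as open circles. CSTF3 shows the widest gap, from 17.9 and 18.1 CPM in NC_2 and NC_3 to 45.0 CPM and above in the SiCIRBP libraries, with NC_1 between them at 36.4 CPM.

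CSTF3, the subunit that joins the others of CstF, had 36.4, 17.9 and 18.1 CPM in NC_1, NC_2 and NC_3 and 45.0, 65.1 and 45.2 CPM in SiCIRBP_1, SiCIRBP_2 and SiCIRBP_3. All SiCIRBP libraries were above all NC libraries, but NC_1 lay nearer to the knockdown libraries than to the other controls. Over the 4 tested libraries the mean was 18.0 ± 0.167 CPM in NC and 45.1 ± 0.174 CPM in SiCIRBP (SD, n = 2 each), a 2.5-fold increase (log2 1.32, SE 0.10, edgeR adjusted p = 0.00273). With all 6 libraries this came to a log2 of 1.10 (SE 0.30, edgeR adjusted p = 0.112). Adding NC_1 alone to the 4 libraries gave 0.90 (edgeR adjusted p = 0.0789), and adding SiCIRBP_2 alone gave 1.52 (edgeR adjusted p = 0.0789). By edgeR, CSTF3 was thus called over the 4 libraries but not with either of the libraries left out put back.

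CSTF1, a WD-repeat subunit, had 57.3, 49.8 and 48.3 CPM in the NC libraries and 53.9, 75.7 and 66.3 CPM in the SiCIRBP libraries, in replicate order. CSTF2, the RNA-binding subunit, had 39.1, 31.3 and 31.5 CPM in NC and 34.6, 48.0 and 42.0 CPM in SiCIRBP. In both genes SiCIRBP_1 lay below NC_1, so the groups overlapped, and SiCIRBP_2 held the highest value. The log2 fold change over 4 libraries was 0.29 for CSTF1 (SE 0.12, edgeR adjusted p = 0.128) and 0.29 for CSTF2 (SE 0.12, edgeR adjusted p = 0.148). Without SiCIRBP_1 it came to 0.43 and 0.41, a setting that leaves 1 knockdown library. CSTF2T, an intronless paralog of CSTF2, had 42.2, 38.4 and 35.6 CPM in NC and 43.8, 61.4 and 49.9 CPM in SiCIRBP (log2 0.34, SE 0.11, edgeR adjusted p = 0.0720), with groups that did not overlap. CSTF2 shared 0.49% of its 31-base words with CSTF2T, so few reads could be split between them.

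Of the cleavage factor I subunits, CPSF6, which carries an RS-like domain, had 86.9, 74.7 and 71.6 CPM in NC and 90.2, 102 and 95.8 CPM in SiCIRBP. The groups did not overlap, although NC_1 and SiCIRBP_1 lay close together. The increase over 4 libraries was 1.27-fold (log2 0.35, SE 0.09, edgeR adjusted p = 0.0359). Over all 6 libraries it was 0.30 on the log2 scale (edgeR adjusted p = 0.186), and leaving out NC_2 or NC_3 from the 4 gave edgeR adjusted p = 0.248 or 0.366.
CPSF7, its alternative partner, had 171, 171 and 173 CPM in NC and 190.5, 126 and 169 CPM in SiCIRBP, the groups overlapping on both sides of the controls. Its log2 fold change was 0.07 over 4 libraries (SE 0.09) and -0.08 over 6 (SE 0.16), turning on SiCIRBP_2.
NUDT21, the UGUA-binding subunit, had 144, 142 and 139 CPM in NC and 132, 160.0 and 123 CPM in SiCIRBP. SiCIRBP_1 and SiCIRBP_3 were below the controls and SiCIRBP_2 above them, and the log2 fold change was -0.14 (SE 0.08, edgeR adjusted p = 0.245) over 4 libraries and -0.04 (SE 0.13) over 6. Leaving out SiCIRBP_1, with 1 knockdown library left, gave -0.20.

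Of the CPSF subunits, CPSF1, the scaffold, had 181, 213 and 226 CPM in NC and 195, 131 and 183 CPM in SiCIRBP, overlapping through NC_1. Its log2 fold change was -0.22 (SE 0.08, edgeR adjusted p = 0.103). Leaving out SiCIRBP_1 or SiCIRBP_3, with 1 knockdown library left, gave -0.27 or -0.18.
CPSF2, the inactive nuclease relative, ranged from 78.8 to 79.7 CPM in NC and from 73.9 to 91.7 CPM in SiCIRBP (log2 0.07, SE 0.12). Without SiCIRBP_1 it came to 0.21, and without SiCIRBP_3 to -0.10, each with 1 knockdown library left.
CPSF3, the endonuclease, ranged from 53.3 to 58.1 CPM in NC and from 56.7 to 58.9 CPM in SiCIRBP (log2 0.11, SE 0.09). CPSF4, the zinc finger subunit that contacts the hexamer, ranged from 53.2 to 61.8 CPM in NC and from 53.5 to 62.5 CPM in SiCIRBP (log2 -0.14, SE 0.09). For CPSF2, CPSF3 and CPSF4 the groups overlapped and no call was made over 4 or over 6 libraries.

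**Figure D3:**
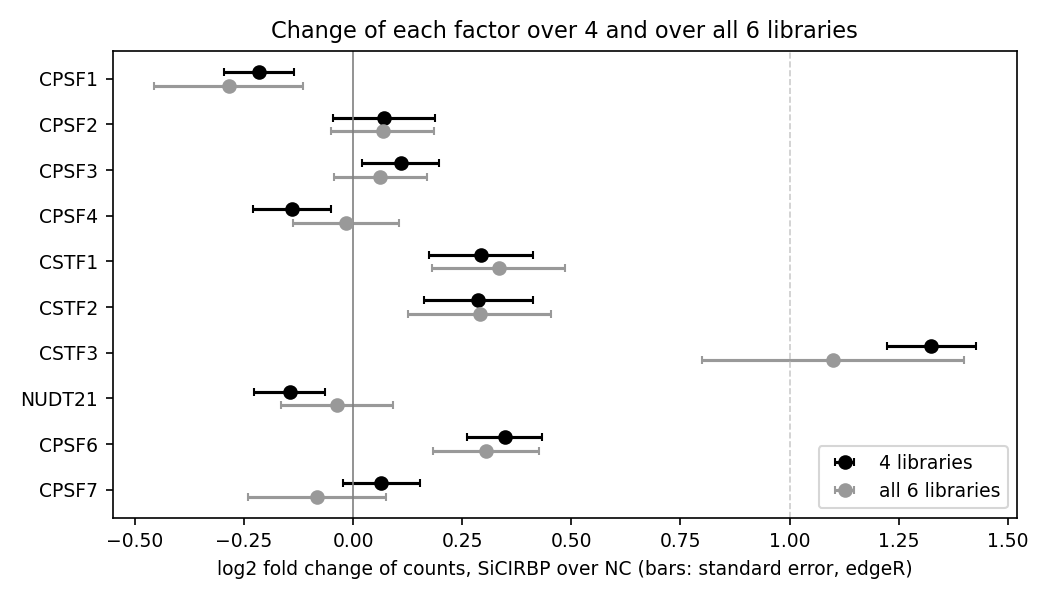
log2 fold change of counts, SiCIRBP over NC, for each factor (x axis), with edgeR standard errors as bars, over the 4 tested libraries (black) and all 6 (grey); the dashed line marks a 2-fold change. CSTF3 lies at 1.32 and 1.10, and the other 9 factors lie between -0.29 and 0.35.

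Levels of different genes were set side by side per transcript length, as TPM. By the mean over all 6 libraries, both groups pooled, the order was CPSF1 (130 TPM), NUDT21 (95.3 TPM), CPSF7 (75.4 TPM), CPSF4 (58.2 TPM), CPSF6 (52.8 TPM), CSTF1 (41.3 TPM), CSTF3 (38.1 TPM), CPSF3 (38.0 TPM), CSTF2 (27.5 TPM) and CPSF2 (25.1 TPM). The ranges of all neighbours in this order overlapped except those of CPSF3 and CSTF2, where the lowest CPSF3 value was 33.5 TPM and the highest CSTF2 value 30.99 TPM. Neither group alone gave this order: in SiCIRBP the mean of CPSF6 (59.9 TPM) was above that of CPSF4 (54.9 TPM), and in NC that of CPSF3 (39.8 TPM) was above those of CSTF1 (38.6 TPM) and CSTF3 (32.7 TPM). CPSF6 stood at 0.649, 0.550 and 0.487 of the TPM of CPSF7 in the NC libraries and at 0.684, 1.20 and 0.837 in the SiCIRBP libraries. The log2 ratio was higher in SiCIRBP by 0.55 over the 4 libraries and by 0.66 over all 6, without overlap (exact permutation test, two-sided, p = 0.1, the smallest 3 against 3 libraries can give). On counts in place of TPM the difference over 4 libraries was 0.28, and the groups overlapped, NC_1 lying above SiCIRBP_1.

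TPM divides a count by an assigned transcript length, so the count over the TPM of a gene gives back the length used in each library. This quotient was put on a scale of bases with 425 genes that have 1 annotated transcript, and is termed the implied length. For CSTF2T, which has 1 transcript of 4105 bases, it stayed between 3840 and 3852 bases in all libraries, below the annotated length. The line through the 425 genes ran 213 to 228 bases below annotated length. An annotated length therefore has to be lowered by that much before it is compared. Of the 425 genes, 58.6% to 65.6% came within 5% of the line in each library, so a distance of a few percent from the line is not resolved. It is an estimate by the authors' tool of which annotated forms the reads came from, and not a measured 3′ end.

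The implied length of CSTF3 was 1101, 823 and 879 bases in NC_1, NC_2 and NC_3 and 1363, 1483 and 1351 bases in SiCIRBP_1, SiCIRBP_2 and SiCIRBP_3. The groups did not overlap, NC_1 again lying between the other controls and the knockdown libraries (exact permutation test, two-sided, p = 0.1, the smallest possible). Over the 4 tested libraries the ratio was 1.57 (log2 0.65), and over all 6 it was 1.48 (log2 0.57). The genes with a ratio at least as high over the 4 libraries, CSTF3 included, were 38 of 11183, or 0.34%. limma called no gene's implied length over the 4 libraries, where 1520 genes had an unadjusted p under 0.05, CSTF3 among them (adjusted p = 0.200). After 213 to 228 bases were taken off the annotated lengths, NC_2 and NC_3 lay between the short forms of 715 and 1132 bases. NC_3 was not resolved from the 3-exon form. NC_1 and all SiCIRBP values lay between the 3-exon form and the full-length form of 2797 bases.

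**Figure D4:**
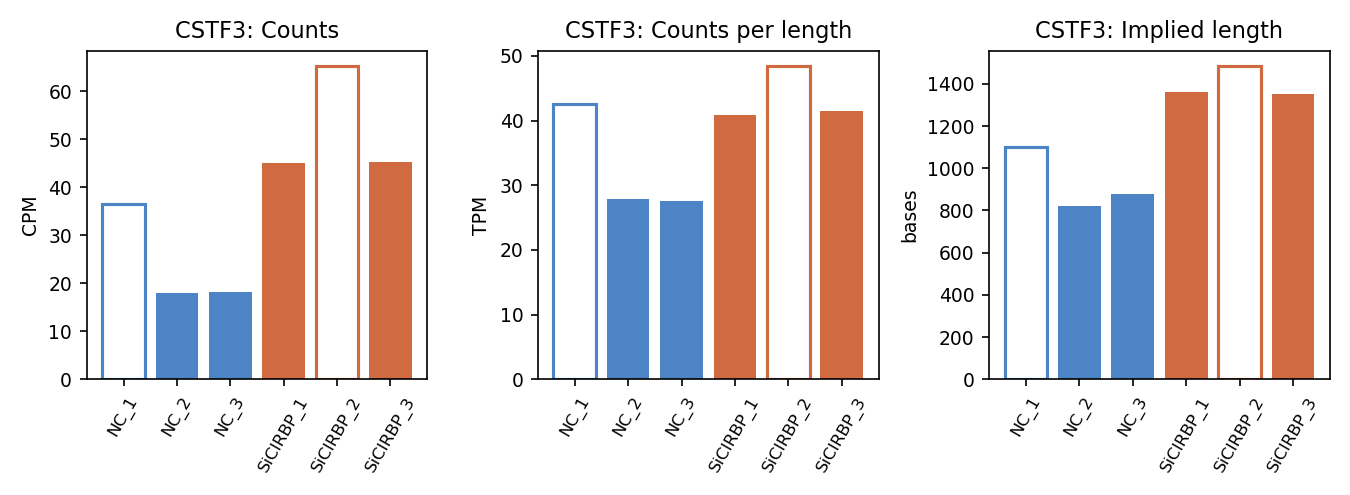
CSTF3 in each library as normalized count (CPM), as count per length (TPM) and as implied transcript length (bases); bars start at 0, NC in blue, SiCIRBP in orange, and open bars mark the libraries outside the test. NC_1 reaches 42.5 TPM, within the range of 40.9 to 48.4 TPM of the SiCIRBP libraries, while its CPM and implied length stay below all 3 of them.

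Because the length differed, counts and TPM gave different sizes of change for CSTF3. Its TPM was 42.5, 28.0 and 27.6 in NC and 40.9, 48.4 and 41.5 in SiCIRBP, so that NC_1 lay above SiCIRBP_1 and the groups overlapped. Over the 4 tested libraries the mean rose from 27.8 ± 0.276 to 41.2 ± 0.445 TPM (SD, n = 2 each). With the implied length as an offset in edgeR, the log2 fold change per length was 0.67 (SE 0.13, edgeR adjusted p = 0.0182) over the 4 libraries and 0.55 (SE 0.22, edgeR adjusted p = 0.177) over all 6.
If all CSTF3 reads were assigned to the full-length and 2-exon forms alone, the implied length would divide the TPM into 12.5, 4.40 and 5.03 TPM of full-length form in NC and 16.9, 23.1 and 17.01 TPM in SiCIRBP. The short form would be 30.02, 23.5 and 22.5 TPM in NC and 24.0, 25.2 and 24.5 TPM in SiCIRBP. In this arithmetic the full-length values of the groups do not overlap and the short-form values do. It holds only for that pair of forms, since with the 3-exon form as the short form the full-length share came out negative in NC_2 and NC_3, at -5.3% and -2.2%. The members shared between 0% and 13.1% of their 31-base words with other genes. CSTF3 had the largest share, mostly with TCP11L1 (6.77%) and LINC00294 (5.13%), which overlap it on the other strand. TCP11L1 changed by a log2 of -0.42 (edgeR adjusted p = 0.0394) and LINC00294 by 0.52 (edgeR adjusted p = 0.0712), and whether reads were counted by strand is not given in the sources used here.

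CPSF6 and CPSF1 had shorter implied lengths after knockdown in every library. That of CPSF6 was 2152, 2164 and 2348 bases in NC and 1963, 1850 and 1911 bases in SiCIRBP, a ratio of 0.846 over the 4 libraries and 0.850 over all 6. After 213 to 228 bases were taken off the annotated lengths, the proximal form of 2229 bases lay below all NC values and above all SiCIRBP values. SiCIRBP_1 lay nearest to it and was not resolved from it. All 6 values lay far below the distal form of 6616 bases. Another annotated coding form, of 1915 bases, ends at the same base as the proximal form. The implied length of CPSF6 can therefore change with no change of 3′ end. That of CPSF1 was 1812, 1945 and 1907 bases in NC and 1697, 1721 and 1792 bases in SiCIRBP, a ratio of 0.892 over the 4 libraries. Without the scaling of each library by its median quotient, the log2 ratio over 4 libraries went from -0.24 to -0.11 for CPSF6 and from -0.17 to -0.03 for CPSF1. Every member moved upward by a similar amount, CSTF3 from 0.65 to 0.78. The unscaled quotient also differs between libraries as a whole, so this shift is not particular to CPSF6 and CPSF1. Over all genes, implied length was longer without overlap in 11.6% and shorter without overlap in 6.82%, against 1 and 2 of the 10 members. limma called neither gene (adjusted p = 0.305 for CPSF6 and 0.325 for CPSF1 over 4 libraries).
NUDT21 had 2031, 1679 and 1786 bases in NC and 2060, 1545 and 2060 bases in SiCIRBP, overlapping groups with a ratio of 1.17 over the 4 libraries and 1.02 over all 6. With the length offset, NUDT21 fell over the 4 libraries by 0.38 on the log2 scale (edgeR adjusted p = 0.0315), CPSF6 rose by 0.58 (edgeR adjusted p = 0.0174) and CSTF3 rose as above. Across genes this fit called 9% higher and 9.73% lower over 4 libraries and none over 6, where 2706 genes had an unadjusted p under 0.05, CSTF3 and CPSF6 among them, and NUDT21 stood at -0.04. CPSF2, CPSF3, CPSF4, CPSF7, CSTF1 and CSTF2 had implied lengths that overlapped between the groups.

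**Figure D5:**
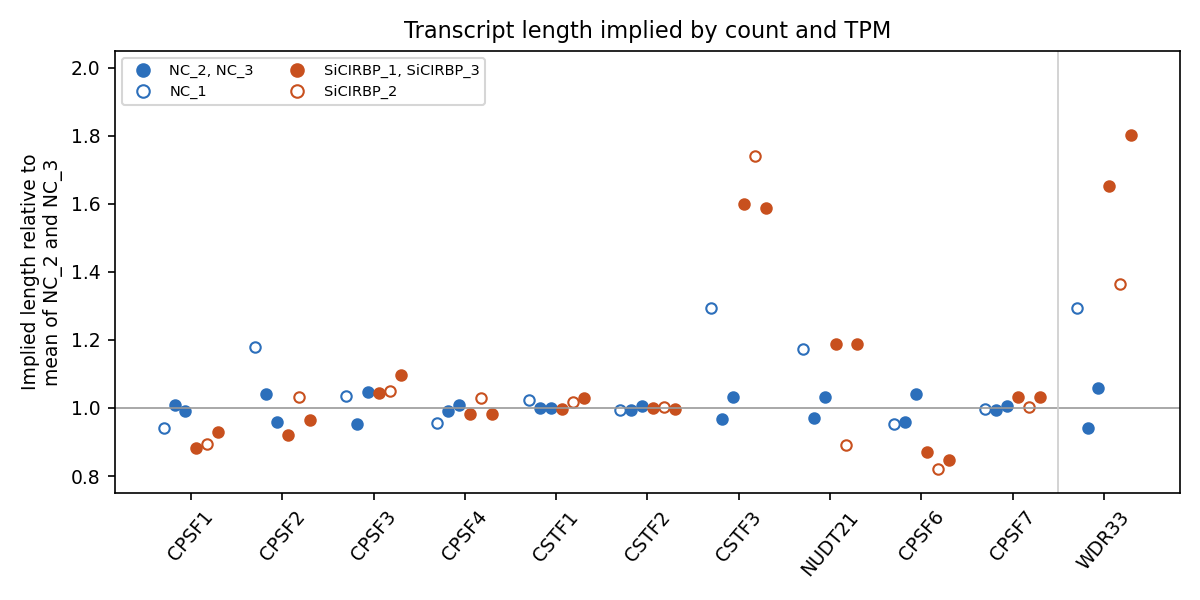
Implied transcript length in each library relative to the mean of NC_2 and NC_3 (y axis, no unit) for the 10 factors and for WDR33, colours and open circles as in the plot of counts. CSTF3 and WDR33 lie above 1.3 in all SiCIRBP libraries and CPSF6 below 0.9, while NC_1 lies near 1.3 for CSTF3 and WDR33.

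Of 15 other subunits and partners of the cleavage machinery fixed as a list, 14 were tested, 4 rose and none fell over the 4 libraries, with a median log2 fold change of 0.27, beside 9.62% of all genes higher and 9.76% lower, which is the background for the lists that follow too. These were WDR33, the hexamer-binding partner of CPSF4 (log2 0.57, edgeR adjusted p = 0.0105), SSU72, a phosphatase of the RNA polymerase II tail (0.49, edgeR adjusted p = 0.0160), PCF11, which links cleavage to termination (0.57, edgeR adjusted p = 0.0192), and PPP1CA, a phosphatase catalytic subunit (0.45, edgeR adjusted p = 0.0216). PAPOLA, the canonical poly(A) polymerase, had a log2 fold change of 0.16 (edgeR adjusted p = 0.308).
WDR33 had 73.2, 60.8 and 57.9 CPM in NC and 88.4, 87.4 and 87.2 CPM in SiCIRBP, without overlap. Its implied length was 5055, 3682 and 4132 bases in NC and 6457, 5334 and 7037 bases in SiCIRBP, also without overlap, with NC_1 close to SiCIRBP_2.
WDR33 shared 25.4% of its 31-base words with SFT2D3, a gene on the other strand that had 0, 13.6 and 24.2 estimated counts in NC and 0 in each SiCIRBP library. Of 18 tested genes of 19 RNA-binding proteins known to affect poly(A) site choice, 5 rose and 1 fell. TARDBP (log2 0.69), SNRPC of the U1 particle (0.54), and the splicing factors SRSF7 (0.47), SRSF3 (0.43) and HNRNPH1 (0.41) were higher, and MBNL2, a muscleblind protein, was lower (-0.88), with edgeR adjusted p between 0.00955 and 0.0303. RBM3, the cold-inducible relative of CIRBP, stood at -0.11 (edgeR adjusted p = 0.739). Of 17 genes of the Integrator complex, which cleaves small nuclear RNAs, NABP1 (0.68, edgeR adjusted p = 0.0171) and INTS6 (0.59, edgeR adjusted p = 0.0207) rose and none fell, a share near that of all genes. Of 5 genes of histone 3′ end processing, none rose, and ZNF473 (-0.47, edgeR adjusted p = 0.0229) and LSM11 (-0.49, edgeR adjusted p = 0.0355) fell. Over all 6 libraries edgeR called no gene of these 4 lists. At an unadjusted p under 0.05 were 17 of 54 (14 higher and 3 lower), beside 3603 of all 15217 genes. DESeq2 called 6 higher and 1 lower, beside 2.27% and 2.55% of the 27993 genes it tested.

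CSTF3 had the largest spread of the members across the 6 libraries (SD of log2(CPM + 1), 0.74). Among 9437 genes with a mean of at least 10 CPM, the profiles nearest to it were those of TUBA1C, CDKN2C and AC125611.3, which, after each gene was centred on its own mean, differed from it by a root mean square of 0.156, 0.168 and 0.168 on the log2 scale over the 6 libraries. Those nearest to NUDT21 were GEMIN2, UCK2 and TIMM29, at 0.0165, 0.0241 and 0.0286. These are descriptions of 6 libraries, chosen for likeness, and carry no test.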

How the data were processed

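RNA-seq libraries of siRNA-treated cells were grouped by the labels. The authors deposited estimated counts per gene and library, not normalized, and TPM values per gene and library. The submitters' processing notes name fastp, HISAT, RSEM and hg38, and versions are not given in the sources used here. Columns of the authors' own fold changes and p-values were not used. The members and lists were chosen with earlier results of these data known.

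Estimated counts were rounded and tested with edgeR 4.0.16 (R 4.3.3; TMM, filterByExpr, glmQLFit and glmQLFTest) over the study's 4 libraries, with Benjamini-Hochberg adjustment over all genes. The standard error of a log2 fold change is its absolute value over the square root of F. Implied length is count over TPM, for 11183 genes with at least 50 counts and at least 1 TPM in every library. It was scaled per library by the median quotient for ratios, or to bases by the slope of a line through 425 genes with 1 transcript. The limma fit (limma 3.58.1) used the bases. Sequences and positions came from GENCODE 29 on GRCh38, and shared sequence is the share of 31-base words found in other genes. Named genes were all members, CIRBP, up to 5 called genes per list by smallest p, CSTF2T, PCF11 and PAPOLA, and the 3 nearest profiles. MBNL2 and RBM3 lie outside that rule, as do genes that share sequence with a member, and were named after their values were seen. On simulated 2 against 2 libraries, edgeR recovered 80.5% of 200 genes changed by a log2 of 1.5 among 15111, with 8% false calls. Of 200 lengths changed by 0.6 among 11183, limma recovered 77.5%, with 7.19% false calls. The simulated lengths had independent normal noise with the variances of the limma fit, whereas in the data limma called no gene. That recovery therefore does not give the power of limma on the real lengths.

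Totals were 25726259 to 29919566 counts per library, and the smallest count of a member was 461. Nothing on the labels says that libraries of a group came from separate cultures, so p-values measure only the spread between these libraries, which may be technical. Same-numbered libraries did not deviate together, so the numbers were not taken as pairs. Alternatives were all 6 libraries, the replicate block, DESeq2 1.42.0, RLE size factors, other filters, each library left out and no scaling of the quotient. NC_1 or SiCIRBP_2 put back alone, the length offset, limma and the division of CSTF3 into a pair of forms were added after seeing the data. Some sequences are not reported here.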

Additional observations from a re-analysis of the deposited data

How the results depend on the processing

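Over the 4 tested libraries 2 members, 1484 of all genes and 11 genes of the other lists rose and 0, 1505 and 3 fell. Over all 6 libraries edgeR called 0 in each of these counts, and with the replicate block 0 members, 1 gene of all (higher) and 0 of the other lists. The block, possible only over all 6 libraries, gave a log2 fold change of 1.16 for CSTF3, 0.31 for CPSF6, -0.10 for CPSF7 and -1.14 for CIRBP. Deviations of libraries with the same number correlated at -0.118, 0.006 and -0.026, which gave no sign of pairs. Deviations from means of 3 libraries, with SiCIRBP_2 standing apart, cannot exclude pairing. DESeq2 over 6 libraries called 1 member, 636 genes and 6 list genes higher, and 715 genes and 1 list gene lower. With NC_1 put back the counts were 0, 554 and 1 higher and 564 genes and 1 list gene lower. With SiCIRBP_2 put back they were 0, 5 and 0 higher and 13 genes and 0 list genes lower. Without a filter on low counts 2492 genes and 5 list genes were lower. Leaving out each library in turn gave 1 to 5 members higher and 0 to 2 lower, 25 to 3379 genes higher and 39 to 3669 lower, and 0 to 24 list genes higher and 0 to 9 lower. Those fits leave 1 library in a group, which is assumed to vary like the other group. CSTF3 kept its direction in every setting, at 1.10 over 6 libraries, 0.90 with NC_1, 1.52 with SiCIRBP_2 and 0.55 with the length offset over 6, in none of which it was called by edgeR. CPSF6 likewise stood at 0.30 over 6 libraries (0.31 with DESeq2), 0.26 with NC_1, 0.39 with SiCIRBP_2 and 0.52 with the length offset over 6, and from 0.31 to 0.38 with NC_2 or NC_3 left out. The length offset over 4 libraries called 1 member lower, NUDT21, and over 6 it called 0 members higher. CPSF7 turned to -0.0821 over 6 libraries with edgeR and -0.0809 with DESeq2, -0.0877 with SiCIRBP_2 and -0.11 with the offset over 6, and ranged from -0.0288 to 0.14 with each library left out. CPSF2 ranged from -0.0976 to 0.21 with each library left out, and CPSF3 to -0.0075 with the offset over 6. The log2 implied length change of CSTF3 was 0.57 over 6 libraries, 0.78 without scaling and 0.59 in limma with the block. Without scaling that of CPSF6 was -0.11 and that of CPSF1 -0.03, a setting that moved every member upward by a similar amount. The CPSF6 to CPSF7 difference was 0.28 on counts. Of 150 values of single members under an alternative, 122 kept their direction and side of the threshold, 13 lost and 7 gained a call, and 8 changed direction. The cause of these changes was not tested.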
